A study of Mus musculus with 9 samples.

Results

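The nuclear-encoded proteins of respiratory complexes II to V were followed as transcripts in liver macrophages of mice labelled MAGL Mye-/- and of MAGL fl/fl control mice. The members were the 48 features, of 59445 in the deposited table, whose gene symbol was Sdha to Sdhd, Cyc1 or Cycs, or began with Uqcr, Cox4 to Cox8 or Atp5. They comprise 4 members of complex II, 9 of complex III, the electron carrier Cycs, 18 of complex IV and 14 of complex V. The remaining 2, Atp5s and Atp5sl, carry the older ATP synthase symbol but are listed by RefSeq as Dmac2l and Dmac2, and they were kept apart from complex V. Of these, 43 members passed a filter on low values, which asked for 10 or more in 4 or more of the 9 libraries. The 5 that did not pass all belong to complex IV. Atp5g2, a further gene for the ATP synthase c subunit, was not analysed here.

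F4/80+ CD11b+ macrophages had been sorted from the non-parenchymal liver cells of male C57BL/6 mice. The mice had received 1 intraperitoneal dose of CCl4 (carbon tetrachloride), a liver toxin, 24 hours earlier, at 0.6 mg/kg as labelled. There were 5 libraries of MAGL Mye-/- mice, named S8, S9, S10, S11 and S12, and 4 of MAGL fl/fl mice, named S1, S3, S4 and S5, and single values are given in these orders. No library of uninjured liver was among them, and the labels name each library without saying whether it came from a separate mouse. MAGL is monoacylglycerol lipase, encoded by Mgll, and the labels name neither the Cre driver nor the deleted exons. In the Mye-/- group, S9, S10 and S11 came from mice aged 10 weeks and S8 and S12 from mice aged 11 weeks, whereas all 4 fl/fl mice were 11 weeks old.

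Complex II, succinate dehydrogenase, oxidizes succinate in the tricarboxylic acid (TCA) cycle and passes the electrons to ubiquinone. Complex III moves them on to cytochrome c, complex IV hands them to oxygen, and complex V (ATP synthase) makes ATP from the proton gradient that complexes I, III and IV build. Complex II is encoded wholly in the nucleus, whereas complexes III, IV and V also need subunits from the mitochondrial chromosome. In macrophages the balance between this chain and glycolysis is known to shift with the activation state, and succinate oxidation by complex II is known to take part in inflammatory signalling.

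Values are reads divided by 1 size factor per library (normalized reads), without a correction for gene length, and ± gives the SD after a mean and the SE after a log2 fold change. Mgll was near the detection limit in both groups, at 30.4, 46.6, 5.93, 42.7 and 0 normalized reads in Mye-/-, against 18.6, 0, 106.5 and 22.8 in fl/fl, so its level did not check the labels. The sort markers were present: Adgre1 (F4/80) averaged 6443 ± 1054 normalized reads in Mye-/- and 5433 ± 658 in fl/fl, and Itgam (CD11b) 49711 ± 4679 and 48739 ± 7072 (SD, n = 5 and 4 in that order). Libraries held 33383559 to 46489349 reads, with 15614 to 16802 features detected in Mye-/- and 14240 to 16385 in fl/fl. Markers of other cells differed between the groups too. The summed level of 8 neutrophil markers was 11978 to 33724 in Mye-/- and 24385 to 44914 in fl/fl, carried almost entirely by S100a8 and S100a9, with Ly6g at 0 in 8 of the 9 libraries. The sum of 5 erythroid markers was 2344 to 6567 in Mye-/- and 5525 to 35097 in fl/fl, highest in fl/fl S3. The sum of 11 hepatocyte markers was 15316 to 32782 in Mye-/- and 13889 to 26663 in fl/fl, and most of it was Trf. Singly, 11 of 11 hepatocyte markers had a log2 fold change above 0, where 45.4% of all features tested were under 0. At an unadjusted limma p under 0.05, 4 were higher, beside 6.38% of all features. Among those 4, Ttr (0, 0, 166 and 0 in fl/fl) and Rbp4 (11.6, 0, 69.8 and 0) passed the filter mainly through the Mye-/- libraries. The median of 1.55 was that of Apoa2, at 0, 0, 405, 17.1 and 39.3 in Mye-/-, against 0, 0, 32.3 and 8.79 in fl/fl. The sum of 5 Kupffer cell markers was 205 to 1821 in Mye-/- and 7.16 to 464 in fl/fl. The sum of 7 macrophage markers was 263080.0 to 329060.0 in Mye-/- and 327730.0 to 528820.0 in fl/fl, a gap that lay in the lysozyme gene Lyz2, since the other 6 had log2 fold changes above 0. The part of these differences in the results below was not tested, and in sorted bulk RNA fewer cells of a type and less RNA per cell cannot be told apart.

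Transcripts of complexes II to V were slightly lower in Mye-/- macrophages in all 4 complexes, and no single member passed the main test. That test was limma on log2(normalized reads + 1), Mye-/- minus fl/fl, with Benjamini-Hochberg adjustment over the 15288 features that reached the filter and a threshold of 0.05. Across all features it called 3, or 0.0196% of those tested, all higher in Mye-/-, and no member was among them. Of the 43 members that passed the filter, 39 had a log2 fold change under 0, a direction taken by 45.4% of all features. The filter itself can fix the direction of a low gene, so the 40 abundant members, those whose mean over all libraries was 500 normalized reads or more, were also read on their own. Of these, 38 had a log2 fold change under 0, where 50.2% of the 7198 features at that level did. Their median log2 fold change was -0.27, beside -0.0014 for those features. An unadjusted limma p under 0.05 with a lower value in Mye-/- was reached by 16 of the 40, beside 7.18% of features at that level and 4.13% of all features tested. All 5 Mye-/- values lay below all 4 fl/fl values for Atp5g3, Atp5k and Atp5o, 3 of the 40, beside 2.65% of features at that level and 1.6% of all features. The count of 16 was 0 among 11-week-old mice alone, 3 with age as a covariate and 6 with a covariate for the number of features detected. Over all features tested the share that was lower at this p was 1.75%, 2.23% and 2.64% in the same settings. In them 38, 38 and 36 of the 43 members had a log2 fold change under 0. Age as a covariate gives the same log2 fold changes as 11-week-old mice alone, so its 38 is not a separate check of direction. The count of 16 was 9 to 21 with 1 library left out at a time, lowest without Mye-/- S11 and highest without Mye-/- S8. It was 6 without fl/fl S1 and S3, the libraries that most often stood highest.

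**Figure D1:**
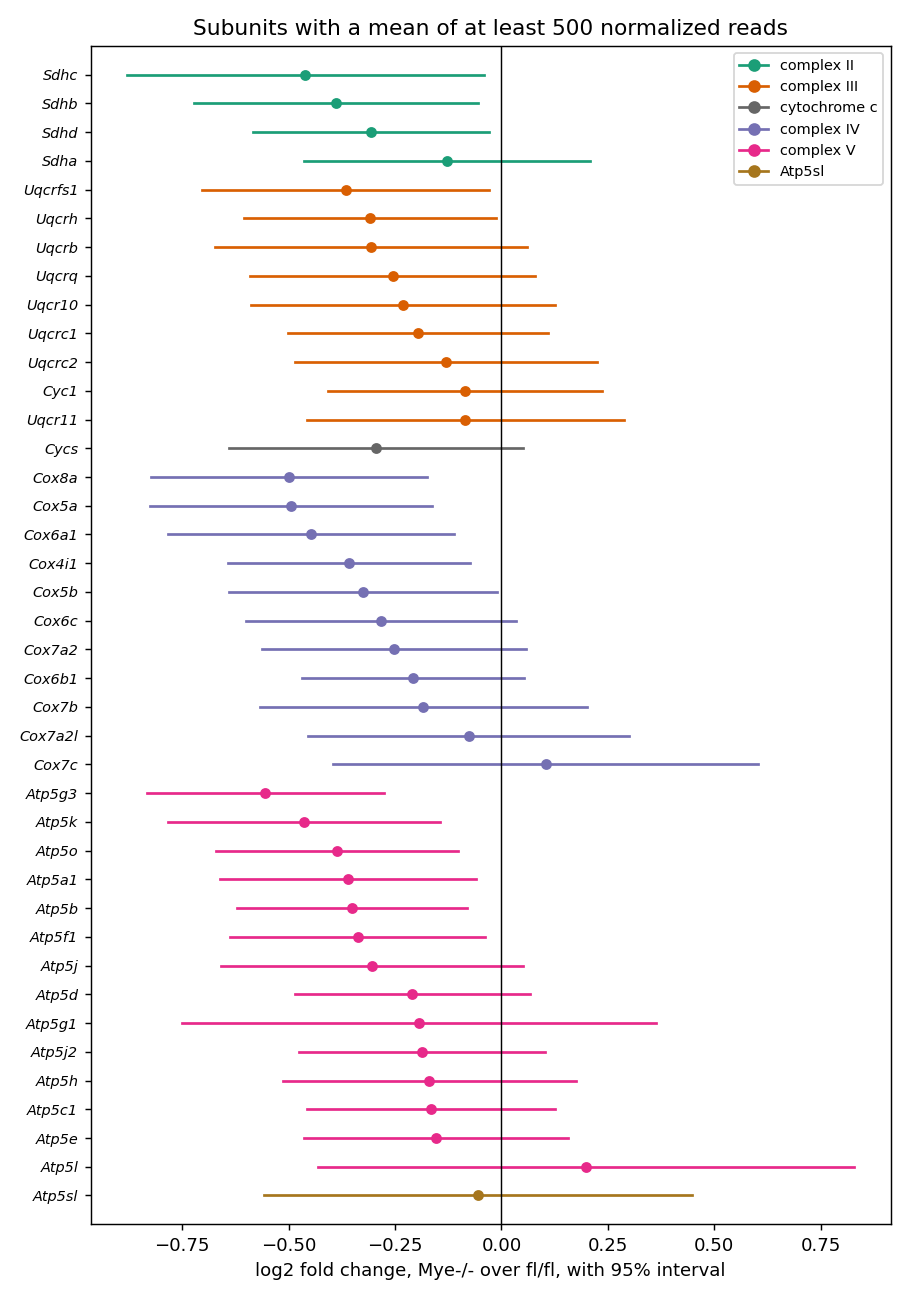
Log2 fold change (Mye-/- over fl/fl, horizontal axis) with its 95% interval from limma for the 40 abundant members, ordered by complex. All points except Cox7c and Atp5l lie below 0, and 16 intervals do not reach 0, although no member passed after adjustment over all features.

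DESeq2 on the recovered whole reads called 1 member, Atp5g3. It called 1.14% of the 5801 features to which it gave an adjusted p as lower in Mye-/-. edgeR's quasi-likelihood test called no member and 0.0131% of the features tested, and 14 members were lower with an unadjusted p under 0.05 in it, beside 3.74% of all features.

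In complex II all 4 subunits averaged lower in Mye-/-, with a median log2 fold change of -0.35. Sdhb (chromosome 4, 140961271 to 140979198, mm10), the iron-sulphur subunit, had 3984, 3497, 4188, 3104 and 3011 normalized reads in Mye-/-, against 6026, 4162, 4611 and 3933 in fl/fl. Only Mye-/- S8 and S10 reached the range of the fl/fl libraries, and fl/fl S1 stood highest (log2 fold change -0.39 ± 0.16, limma adjusted p = 0.405, and -0.26 without that library). Sdhc (chromosome 1, 171127166 to 171150605), a membrane anchor that helps hold the haem, had 2577, 3179, 3639, 2692 and 2819 in Mye-/-, against 6492, 3696, 2751 and 4154 in fl/fl. Its log2 fold change was -0.46 ± 0.20 (limma adjusted p = 0.438), and -0.24 without fl/fl S1, the library that stands highest. Sdhd (chromosome 9, 50596338 to 50603849), the second anchor, had 7714, 6469, 6827, 6802 and 5991 in Mye-/-, against 8985, 9564, 7630.1 and 7336 in fl/fl. Here only Mye-/- S8 reached the fl/fl range (log2 fold change -0.31 ± 0.13, limma adjusted p = 0.437). Sdha (chromosome 13, 74322254 to 74350248), the flavoprotein that binds succinate, had 4090.0, 5074, 5163, 5853 and 5880 in Mye-/-, against 7555, 4524, 5248 and 5662 in fl/fl. The groups overlapped for Sdha, with a log2 fold change of -0.13 ± 0.16 (limma adjusted p = 0.819) that was 0.013 without fl/fl S1.

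Complex III had 9 of 9 members averaging lower in Mye-/-, with a median log2 fold change of -0.23. The Rieske iron-sulphur protein, Uqcrfs1 (chromosome 13, 30540312 to 30545327), had 7936, 5501, 6439, 5994 and 6498 normalized reads in Mye-/-, against 11831, 7769, 7327 and 6977 in fl/fl. The difference (log2 fold change -0.37 ± 0.16, limma adjusted p = 0.444) leaned on fl/fl S1, without which it was -0.19. The hinge protein Uqcrh (chromosome 4, 116066963 to 116075070), which lies beside cytochrome c1, had 14231, 10348, 11841, 14123 and 10508 in Mye-/-, against 13101, 17741, 15158 and 14253 in fl/fl. In contrast with Uqcrfs1, its lowest fl/fl library was S1 (log2 fold change -0.31 ± 0.14, limma adjusted p = 0.459). Uqcrb, which lies near the quinone site, had 2754, 2333, 2198, 2597 and 2001 in Mye-/-, against 3398, 3743, 2325 and 2455 in fl/fl (log2 fold change -0.31 ± 0.17, limma adjusted p = 0.552). That value was -0.19 without fl/fl S3 and -0.017 without both S1 and S3, the pair of fl/fl libraries that stand highest for it. Uqcrq, another small subunit, had 5813, 4419, 3841, 5255 and 3563 in Mye-/-, against 5587, 6088, 4557 and 5384 in fl/fl, with overlapping groups (log2 fold change -0.26 ± 0.16, limma adjusted p = 0.591). Cyc1, the cytochrome c1 haem subunit, had 3272, 3395, 3141, 3836 and 3333 in Mye-/-, against 3556, 4625, 3563 and 2850 in fl/fl. Its log2 fold change of -0.086 ± 0.15 (limma adjusted p = 0.877) lay within the spread of the fl/fl libraries and was 0.035 without fl/fl S3. The core proteins Uqcrc1 and Uqcrc2 and the small subunits Uqcr10 and Uqcr11 had log2 fold changes of -0.20, -0.13, -0.23 and -0.084 in that order. Cycs, somatic cytochrome c, had 6774, 4749, 4204, 4788 and 3943 in Mye-/-, against 7126, 5595, 4838 and 6243 in fl/fl. Apart from Mye-/- S8, all Mye-/- libraries lay below the lowest fl/fl library for Cycs (log2 fold change -0.29 ± 0.17, limma adjusted p = 0.545).

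In complex IV 11 of the 13 members that passed the filter averaged lower in Mye-/-, with a median log2 fold change of -0.28, and 5 of them had an unadjusted p under 0.05. Cox8a (chromosome 19, 7215158 to 7217616), a small membrane subunit, had 5219, 4833, 5102, 4422 and 5725 normalized reads in Mye-/-, against 9871, 5718, 6970.2 and 6543 in fl/fl. The groups met only at Mye-/- S12 and fl/fl S3 (log2 fold change -0.50 ± 0.15, limma adjusted p = 0.286, DESeq2 adjusted p = 0.0665). Cox5a (chromosome 9, 57521232 to 57532424), which sits on the matrix face, had 4563, 4683, 4886, 4165 and 5330 in Mye-/-, against 9381, 6461, 6111 and 5236 in fl/fl. Again a single pair of libraries overlapped, Mye-/- S12 and fl/fl S5 (log2 fold change -0.49 ± 0.16, limma adjusted p = 0.297). Cox6a1 (chromosome 5, 115345654 to 115348961), the non-muscle form of a regulatory subunit, had 4941, 4264, 6586, 4866 and 5260 in Mye-/-, against 9286, 7159, 6207 and 5805 in fl/fl. Mye-/- S10 was the only Mye-/- library within the fl/fl range (log2 fold change -0.45 ± 0.16, limma adjusted p = 0.334). For Cox8a, Cox5a and Cox6a1 fl/fl S1 was the highest library, and without it the log2 fold changes were -0.34, -0.33 and -0.31 in that order. Cox4i1 (chromosome 8, 120668225 to 120674209), the subunit through which ATP is known to inhibit the enzyme, had 31374, 24301, 25415, 25448 and 22814 in Mye-/-, against 35511, 36924, 28958 and 31099 in fl/fl. Mye-/- S8 alone entered the fl/fl range (log2 fold change -0.36 ± 0.14, limma adjusted p = 0.365). Among the other abundant subunits, log2 fold changes were -0.33 for the zinc-binding Cox5b, -0.28 for Cox6c, -0.25 for Cox7a2, -0.21 for Cox6b1 and -0.18 for Cox7b. Cox7a2l, which is known as a supercomplex assembly factor, stood at -0.077 and Cox7c at 0.10.

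**Figure D2:**
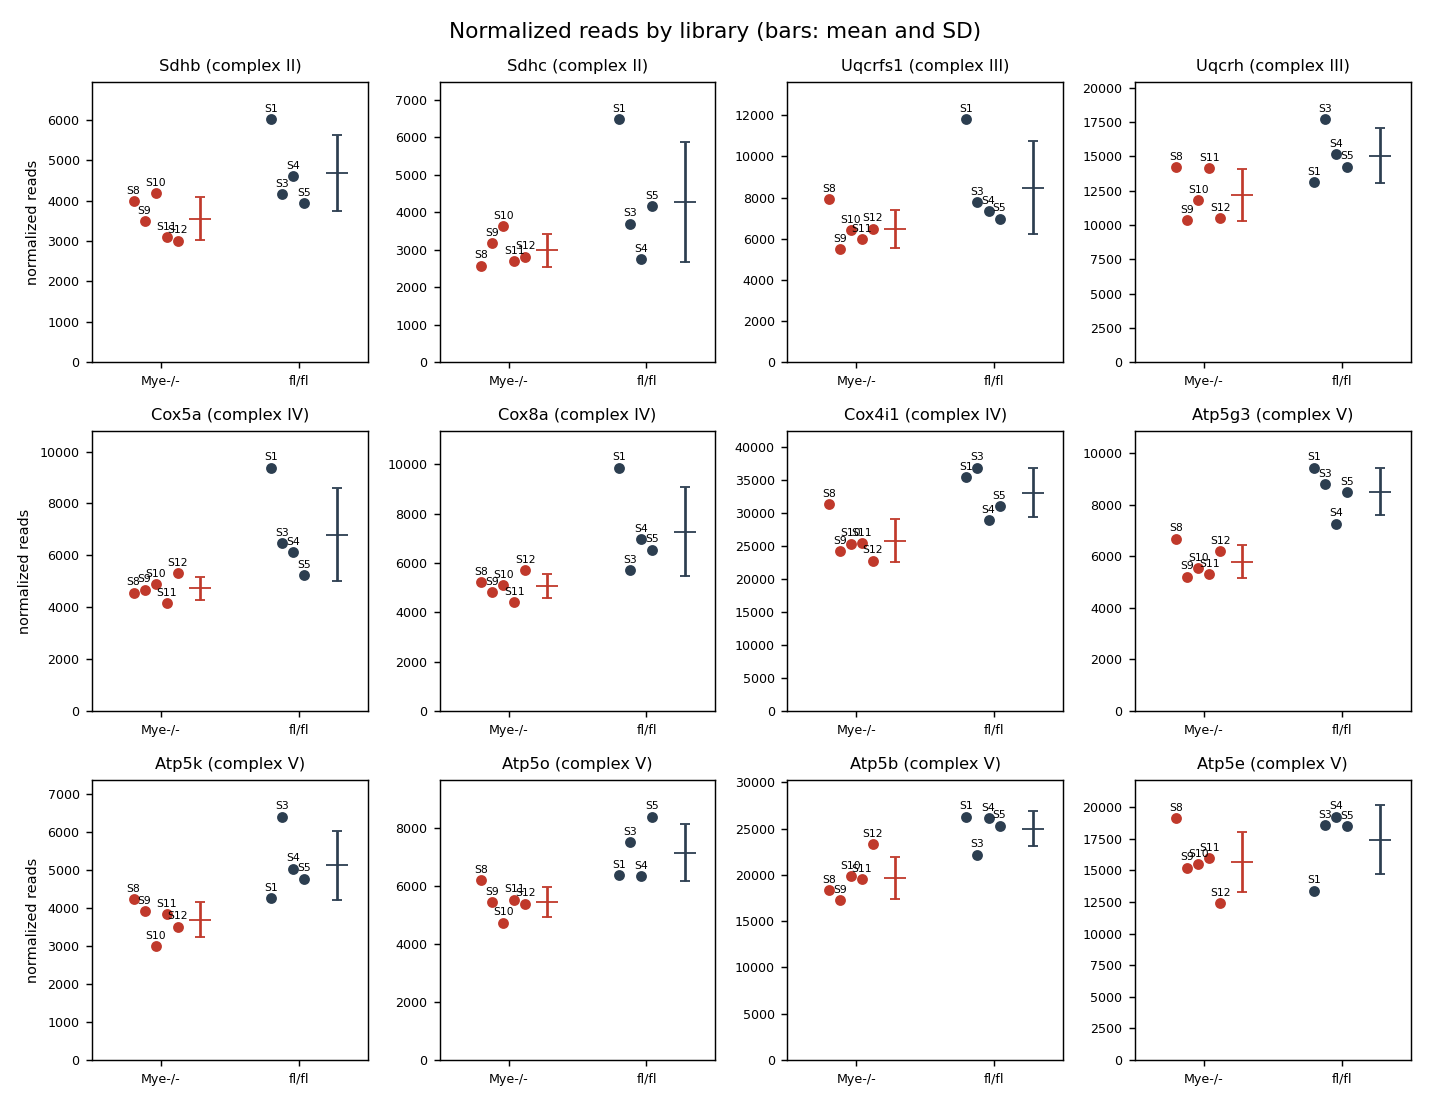
Normalized reads (vertical axes, each from 0) in every library for 12 members of complexes II to V, with Mye-/- libraries at the left and fl/fl libraries at the right of each panel and the mean and SD of each group beside its points. The groups do not overlap for Atp5g3, Atp5k and Atp5o, fl/fl S1 stands highest for Sdhc, Uqcrfs1, Cox5a and Cox8a, and it lies below 4 of the 5 Mye-/- libraries for Atp5e.

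Most complex IV subunits with paired isoforms were measured in the widely expressed form. Cox6a1 averaged 5183 ± 863 normalized reads in Mye-/- and 7114 ± 1555 in fl/fl, whereas the heart and muscle isoform Cox6a2 was listed at 0 in all 9 libraries, as were Cox8b, Cox8c and Cox7b2. Cox4i2, the isoform known from lung, was listed at 0 except in fl/fl S5, at 28.1. Cox7a1, the heart and muscle form of Cox7a2, had 148, 0, 67.0, 0 and 126 in Mye-/-, against 44.1, 141, 359 and 109 in fl/fl. Cox6b2, the testis form of Cox6b1, had 147, 286, 153, 259 and 227 in Mye-/-, against 279.7, 215, 3.49 and 80.8 in fl/fl. Cox7a1 spread widely within each group and Cox6b2 within fl/fl, where S4 stood at 3.49. Neither difference passed (limma adjusted p = 0.523 and 0.568).

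Complex V held the member with the smallest p of all, Atp5g3, and 13 of its 14 subunits averaged lower in Mye-/-, with a median log2 fold change of -0.26. Atp5g3 (chromosome 2, 73908449 to 73911326, minus strand) is one of the genes for the c subunit, which forms the rotor ring in the membrane. It had 6692, 5213, 5551, 5310.0 and 6193 normalized reads in Mye-/-, against 9442, 8808, 7274 and 8494 in fl/fl. The highest Mye-/- library lay below the lowest fl/fl library, and the mean was 31.9% lower (5792 ± 632 in Mye-/-, 8504 ± 910.3 in fl/fl, SD, n = 5 and 4). With limma the log2 fold change of -0.55 ± 0.13 did not pass (adjusted p = 0.218), and with DESeq2 it did (-0.56, adjusted p = 0.00568). The DESeq2 call held without any 1 library, with adjusted p from 0.00106 to 0.0443, and was lost with age as a covariate (adjusted p = 0.515). Atp5g1, a second c subunit gene, had 739, 831, 537, 625 and 801 in Mye-/-, against 528, 855, 1143 and 787 in fl/fl. Its groups overlapped (log2 fold change -0.19 ± 0.27, limma adjusted p = 0.829).

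Atp5k (chromosome 5, 108433246 to 108434399), subunit e of the membrane part, had 4218, 3905, 2982, 3831 and 3505 in Mye-/-, against 4251, 6398, 5028 and 4764 in fl/fl. The groups did not overlap, but fl/fl S1 and Mye-/- S8 nearly met (log2 fold change -0.46 ± 0.15, limma adjusted p = 0.317). Atp5o (chromosome 16, 91925223 to 91931630), the stalk subunit that confers oligomycin sensitivity, had 6205, 5437, 4736, 5535 and 5392 in Mye-/-, against 6369, 7511, 6353 and 8402 in fl/fl. It also separated the groups, by a narrow gap between Mye-/- S8 and fl/fl S4 (log2 fold change -0.39 ± 0.14, limma adjusted p = 0.332). Atp5b (chromosome 10, 128083301 to 128090388), the catalytic beta subunit, had 18331, 17231, 19870.0, 19514 and 23318 in Mye-/-, against 26310.0, 22202, 26109 and 25316 in fl/fl. Mye-/- S12 and fl/fl S3 were the pair that overlapped (log2 fold change -0.35 ± 0.13, limma adjusted p = 0.347). The alpha subunit Atp5a1, which forms the catalytic head with the beta subunit, averaged 17792 ± 2062 in Mye-/- and 23016 ± 4510 in fl/fl, and the stator subunit Atp5f1 averaged 8011 ± 1031 and 10167 ± 1765. Their log2 fold changes were -0.36 and -0.34 (limma adjusted p = 0.396 and 0.428).

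The remaining complex V subunits differed less. Log2 fold changes were -0.30 for Atp5j and -0.17 for Atp5h, both of the peripheral stalk, -0.21 for Atp5d and -0.17 for Atp5c1, both of the central stalk, and -0.19 for Atp5j2 in the membrane part. Atp5e, the epsilon subunit of the central stalk, had 19156, 15215, 15508, 15941 and 12430.0 in Mye-/-, against 13399, 18558, 19261 and 18499 in fl/fl, so that fl/fl S1 lay outside the other fl/fl libraries (log2 fold change -0.15). Atp5l, subunit g, was the exception in direction, with 631, 615, 591, 1056 and 615 in Mye-/-, against 692, 874, 354 and 588 in fl/fl (log2 fold change 0.20 ± 0.30, limma adjusted p = 0.849). Atp5sl, whose product DMAC2 is known as an assembly factor of complex I, averaged 1292 ± 251 in Mye-/- and 1384 ± 454 in fl/fl. Atp5s had 27.4, 37.8, 22.0, 36.3 and 94.8 in Mye-/-, against 0, 31.0, 0 and 10.5 in fl/fl. It passed the filter mainly through the Mye-/- libraries, and its unadjusted p was under 0.05 toward higher values, as it was for 6.38% of all features (limma adjusted p = 0.470).

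Levels can be compared between genes only per length, here as normalized reads per kilobase of the GENCODE transcript, so the choice of transcript enters each value. The highest levels per kilobase were those of Cox4i1 (34265 ± 4316 in Mye-/-, 43872 ± 4932 in fl/fl) and Atp5e (37173 ± 5691 in Mye-/-, 41399 ± 6435 in fl/fl), which overlapped each other. Cox6b1 and Uqcrh followed, at 22832 ± 2499 and 22322 ± 3450 in Mye-/-, against 26255 ± 1292 and 27538 ± 3609 in fl/fl, and could not be ordered within their spread either. In complex II the order per kilobase ran from Sdhd (5492 ± 513 in Mye-/-, 6806 ± 867 in fl/fl) over Sdhb and Sdha to Sdhc (940.1 ± 136 in Mye-/-, 1348 ± 502 in fl/fl). The 2 c subunit genes lay far apart: Atp5g3 stood at 8061 ± 879 per kilobase in Mye-/- and 11836 ± 1267 in fl/fl, and Atp5g1 at 264 ± 46.0 and 309.5 ± 94.4. Part of that gap comes from the transcript lengths used, 718.5 bases for Atp5g3 and 2675.5 for Atp5g1. Before division by length, Atp5g3 averaged 5792 normalized reads in Mye-/- and 8504 in fl/fl, and Atp5g1 707 and 828. Among the isoform pairs of complex IV, Cox7a2 stood at 9772 ± 1821 per kilobase in Mye-/- and 11526 ± 1133 in fl/fl, and Cox7a1 at 173 ± 175 and 415 ± 347.

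**Figure D3:**
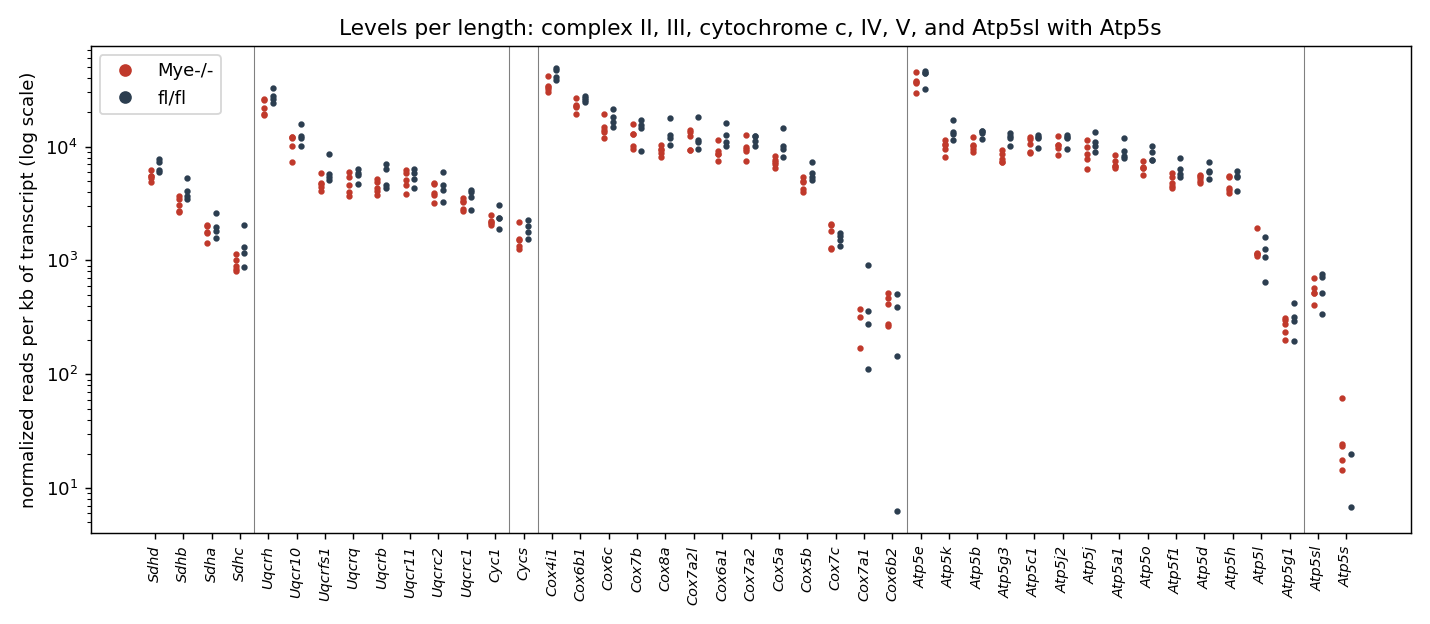
Normalized reads per kilobase of transcript (vertical axis, log scale) in every library for the 43 members that passed the filter, by complex and in descending order, with Mye-/- to the left of fl/fl for each gene and values of 0 not drawn. Cox4i1, Atp5e, Uqcrh and Cox6b1 stand highest, and Cox7a1, Cox6b2, Atp5g1 and Atp5s lowest.

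Added up, the members that passed the filter took 0.815%, 0.732%, 0.768%, 0.771% and 0.739% of all reads in Mye-/-, against 0.944%, 0.909%, 0.887% and 0.873% in fl/fl. Every Mye-/- library lay below every fl/fl library in this share, and also when reads of the mitochondrial chromosome were left out of the total (0.814% ± 0.0395 in Mye-/-, 0.963% ± 0.0338 in fl/fl, SD). By complex, the shares of all reads did not overlap for complex V (0.295% to 0.316% in Mye-/-, 0.356% to 0.371% in fl/fl) or complex IV (0.244% to 0.293% in Mye-/-, 0.299% to 0.339% in fl/fl). They overlapped for complex III (0.117% to 0.141% in Mye-/-, 0.139% to 0.162% in fl/fl) and complex II (0.0458% to 0.0544% in Mye-/-, 0.0533% to 0.0750% in fl/fl). Whether complexes II and IV overlapped depended on the scale. With mitochondrial reads left out of the total, complex II did not overlap (up to 0.0566% in Mye-/-, from 0.0571% in fl/fl). In summed normalized reads complex II did not overlap either, whereas complex IV did. Since a sum follows its most abundant members, the mean over genes of the log2 level, centred on each gene's mean, was also taken. In complex II the Mye-/- libraries ran over -0.21 to -0.0013, against 0.57 in fl/fl S1 and 0.076, -0.021 and 0.083 in the other fl/fl libraries, so the groups overlapped through fl/fl S4. In complex IV the groups overlapped on this scale, with Mye-/- S8 at 0.086 above fl/fl S4 at 0.082 and S5 at 0.079. In complex V the Mye-/- libraries ran over -0.23 to 0.031 and the fl/fl libraries over 0.033 to 0.30, so that Mye-/- S8 and fl/fl S1 stood side by side. Over the 40 abundant members together the groups nearly met on this scale, with Mye-/- S8 at 0.0487 and fl/fl S4 at 0.0496.

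**Figure D4:**
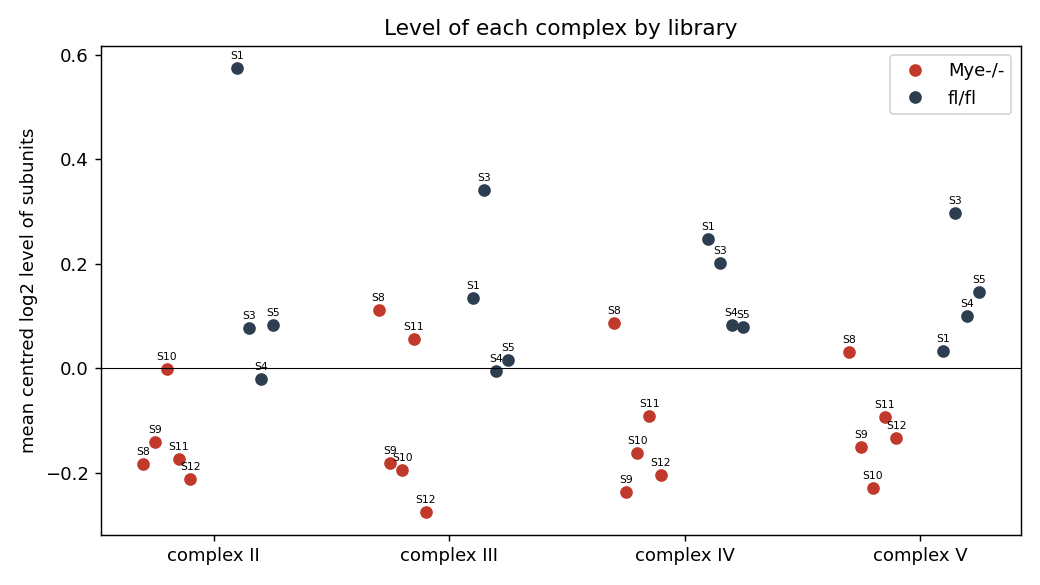
Mean over the subunits of a complex of the log2 level centred on each gene's mean over the 9 libraries (vertical axis), for the abundant members, with Mye-/- libraries left of fl/fl libraries. Within fl/fl, S1 stands highest for complexes II and IV and S3 for complexes III and V, and within Mye-/- S8 stands highest for complexes III, IV and V.

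The libraries did not stand in the same order for every subunit. Of the 40 abundant members, 37 had their highest value in a fl/fl library, which was S3 for 17 and S1 for 15. The lowest value was in a Mye-/- library for 35 of them, most often in S12 (14 members) and S9 (9 members). Mye-/- S8 was the highest of the Mye-/- libraries for 23 members. The mitochondrial chromosome took 3.93% to 7.09% of reads in Mye-/- and 3.49% to 9.45% in fl/fl, with the lowest share in fl/fl S1 and the highest in fl/fl S3. The feature of mt-Co1, the catalytic subunit of complex IV encoded there, averaged 1179400.0 ± 301830.0 normalized reads in Mye-/- and 1292100.0 ± 595800.0 in fl/fl (log2 fold change -0.060, limma adjusted p = 0.970). The feature that spans mt-Nd5, mt-Nd6 and mt-Cytb, the last a subunit of complex III, had a log2 fold change of -0.052 (limma adjusted p = 0.972). Differences between the mitochondrial and nuclear subunits were not tested.

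Transcript length moved with the fold change across all genes of similar level. Among the 6584 features of that abundance with an annotated length, the median log2 fold change was -0.22 for 114 features under 600 bases, of which 93 were lower in Mye-/-. It was -0.20 for 420 features of 600 to under 1000 bases, of which 326 were lower, and 0.018 for 6050 features of 1000 bases or more, of which 2877 were lower. The members had medians of -0.27 (8 of 10 lower), -0.29 (12 of 12 lower) and -0.20 (18 of 18 lower) in the same classes. In the 2 shorter classes the medians of the members and of all features, from which the members were not removed, were both under 0. All 18 members of 1000 bases or more, such as Atp5b, had log2 fold changes under 0, in a class in which about as many features were higher as lower. That class has no upper limit, whereas its members ran from 1001 bases (Cox7b) to 3171 (Sdhc), so lengths in it are not matched. Spearman's rho of length with the log2 fold change was 0.37 over the 6584 features and 0.032 over the 40 members. Among members, length went with the difference between the fl/fl libraries S1 and S3. In those classes S1 was above S3 in 3 of 10, 2 of 12 and 11 of 18 members. Over all features of that abundance it was above S3 in 45 of 114, 207 of 420 and 3104 of 6050. As a description across genes, Spearman's rho of length with the log2 difference S1 minus S3 was 0.33 over the 40 members and -0.16 over the 6584 features, so the members did not follow the sign seen over all genes. The part of transcript length in the group difference was not tested further.

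**Figure D5:**
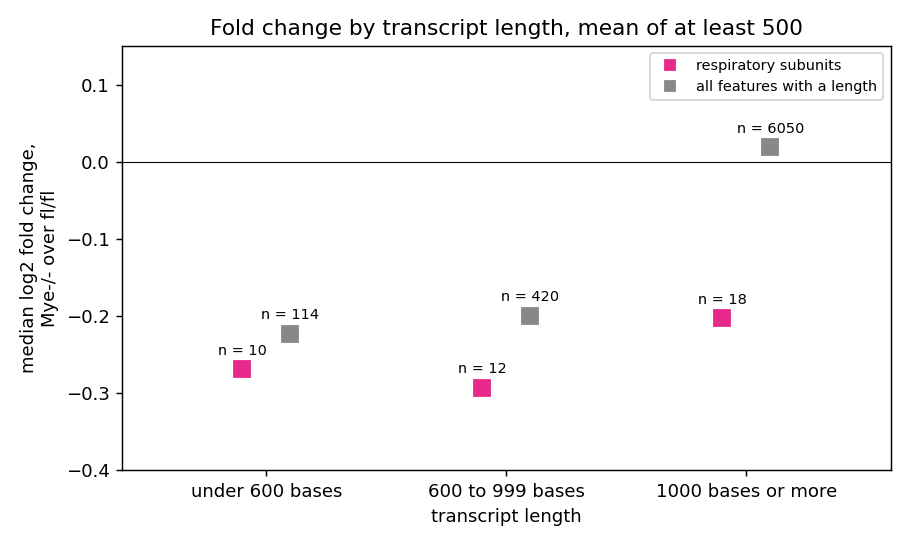
Median log2 fold change (Mye-/- over fl/fl, vertical axis) in 3 classes of transcript length, for members and for all features with a length, all with a mean of 500 normalized reads or more, with the number of genes beside each point. The medians of members and of all features, members included, are both under 0 below 1000 bases. They lie apart (-0.20 and 0.018) at 1000 bases or more, a class without an upper limit of length.

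Other genes of the pathway were read from lists. Complex I, which feeds electrons from NADH into the chain, had 33 of the 35 Nduf subunits that passed the filter lower in Mye-/-. The median log2 fold change of the 35 was -0.34, 15 were lower at an unadjusted p under 0.05, and none passed with limma after adjustment. Over all features tested, 45.4% were lower and 4.13% were lower at that unadjusted p. Summed normalized reads of complex I also did not overlap between the groups (99910 to 128130 in Mye-/-, 130280 to 153600 in fl/fl). The sums of the TCA cycle genes read below did not overlap either, while those of the other pathway lists did. Subunits known under other symbols had the same sign: Ndufa4, now counted to complex IV, had a log2 fold change of -0.32, and the ATP synthase subunits 2010107E04Rik and Usmg5 had -0.22 and -0.11. Of 33 genes on a list of assembly factors that passed the filter, 23 were lower and 10 higher, with a median of -0.11. At an unadjusted p under 0.05, 4 were lower, beside 4.13% of all features. Those 4 were Lrpprc, Coa7, Cox17 and Atpif1, the last of which encodes the inhibitor of ATP synthase and is not an assembly factor, though on that list. Lrpprc, which is known to stabilize mitochondrial mRNAs, averaged 1864 ± 417 normalized reads in Mye-/- and 2792 ± 626 in fl/fl (log2 fold change -0.58 ± 0.19, limma adjusted p = 0.317). Cox17, a copper chaperone for complex IV, averaged 3587 ± 674 in Mye-/- and 4818 ± 1108 in fl/fl (log2 fold change -0.42 ± 0.17, limma adjusted p = 0.414).

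Genes known to control mitochondrial biogenesis had no common direction, with 5 lower and 6 higher of the 11 that passed the filter and a median log2 fold change of 0.033. Nrf1, nuclear respiratory factor 1, was at 0.033 ± 0.21 and Gabpa, the ETS-domain subunit of nuclear respiratory factor 2, at 0.20 ± 0.20. Pprc1, a coactivator of the PGC-1 family, averaged 2572 ± 475 normalized reads in Mye-/- and 1918 ± 256 in fl/fl (log2 fold change 0.41 ± 0.17, limma adjusted p = 0.428). Ppargc1a, which encodes PGC-1 alpha, was listed at 0 in every library except fl/fl S3, at 88.4. In the TCA cycle, which complex II shares with the respiratory chain, 11 of 14 genes were lower, beside 45.4% of all features, with a median of -0.23. At an unadjusted p under 0.05, 3 were lower, beside 4.13% of all features, and 1 was higher, beside 6.38%. The higher one was Dlst, a subunit of the 2-oxoglutarate dehydrogenase complex (log2 fold change 0.30 ± 0.14, limma adjusted p = 0.456). Suclg1, the alpha subunit of the succinyl-CoA ligase that supplies succinate, had 1611, 1664, 1656, 1703 and 1560 in Mye-/-, against 2752, 2064, 2271 and 2455 in fl/fl. All Mye-/- values lay below all fl/fl values for Suclg1, as for 1.6% of all features (log2 fold change -0.53 ± 0.16, limma adjusted p = 0.260). Idh3a, a subunit of the NAD-dependent isocitrate dehydrogenase, had 1223, 882, 822, 711 and 1033 in Mye-/-, against 1132, 2017, 1691 and 1331 in fl/fl, with fl/fl S1 inside the Mye-/- range (log2 fold change -0.71 ± 0.23, limma adjusted p = 0.295).

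Promoters of respiratory genes are known for sites of NRF1, of ETS-family factors such as GABP and of YY1, so the RefSeq windows (GRCm38.p6, the assembly of mm10) from 250 bases before to 50 bases after each start were searched on both strands. Of the 40 abundant members, 32 had a window. The NRF1 letters, GCGC and GCGC with AN between them, were in the windows of 9 of the 32 (28.1%). They were in 13.4% of 5422 genes with a mean of 500 normalized reads or more and in 5.19% of all 27025 genes with a window. The 5422 genes share with the members only that lower limit of level, and the members were not removed from them. The ETS letters CCGGAAG were in 12 (37.5%), against 23.6% and 9.93%, and the YY1 letters AAGATGGCG in 3 (9.38%), against 4.43% and 1.64%. Those 3 were Atp5j, in only 1 of its windows, Atp5j2 and Atp5sl, which was kept apart from complex V. These shares are a description of letters, and binding was not measured. The 180 bases before the start are shown for 4 of the members that hold the NRF1 letters there, chosen as examples from complexes II, IV and V. Atp5c1 and Atp5h of complex V also hold them there and are not shown. Capitals mark the NRF1 or the ETS letters on either strand, a place read on both strands is counted once, and the marked places do not overlap.
Sdha: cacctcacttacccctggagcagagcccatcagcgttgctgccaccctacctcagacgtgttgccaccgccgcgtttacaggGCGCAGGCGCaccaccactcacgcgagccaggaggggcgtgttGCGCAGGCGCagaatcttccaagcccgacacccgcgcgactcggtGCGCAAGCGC
Sdhd: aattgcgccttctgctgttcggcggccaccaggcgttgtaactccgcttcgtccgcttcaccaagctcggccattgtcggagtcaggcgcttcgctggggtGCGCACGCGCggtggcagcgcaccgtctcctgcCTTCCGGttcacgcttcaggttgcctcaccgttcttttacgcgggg
Cox6a1: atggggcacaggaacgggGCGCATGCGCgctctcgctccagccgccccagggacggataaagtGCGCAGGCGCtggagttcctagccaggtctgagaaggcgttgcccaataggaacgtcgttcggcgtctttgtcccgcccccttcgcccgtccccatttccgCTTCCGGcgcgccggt
Atp5k: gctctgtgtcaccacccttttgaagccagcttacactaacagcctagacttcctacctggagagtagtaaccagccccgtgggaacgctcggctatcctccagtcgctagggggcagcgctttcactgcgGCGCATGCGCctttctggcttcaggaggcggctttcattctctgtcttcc
They lie on the minus strand at chr13:74350241-74350420 (Sdha), chr9:50603850-50604029 (Sdhd), chr5:115348959-115349138 (Cox6a1) and chr5:108434400-108434579 (Atp5k), written 5′ to 3′ toward the start. Sdha holds the NRF1 letters at 3 places and Cox6a1 at 2, while Sdhd and Atp5k hold them once. Log2 fold changes of these genes were -0.13, -0.31, -0.45 and -0.46 in the order printed. A relation of these letters to the fold changes was not tested.

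Whether counting used strand is not given in the sources used here. Exons of 9 members that passed the filter overlap exons of another gene on the opposite strand in GENCODE, among them Atp5o, Cox4i1, Cox5a, Atp5a1 and Atp5f1, so reads of the partner cannot be told apart from theirs. Atp5g3, Atp5k, Cox8a, Cox6a1 and Atp5b have no such partner. Exons of Atp5o also overlap, on the same strand, exons of another GENCODE entry of that name, which counting by strand could not separate.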

How the data were processed

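The authors deposited a table of normalized read signal values per gene. Per the submitters' processing notes, reads were handled with STAR 2.4.0, SAMtools, Picard, FastQC and DESeq on mm10, and the deposited values are read counts divided by 1 size factor per library. All nonzero values (100% per library) were whole multiples of the value of 1 read within a tolerance of 0.01, which gave back whole reads. The counting tool and its treatment of strand and duplicate reads are not given in the sources used here, and no molecular identifiers were recorded.

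Genotypes were compared in R 4.3.3 with limma 3.58.1 and its intensity trend, on log2(value + 1) of the 15288 features that reached 10 in 4 or more of the 9 libraries, two-sided, with Benjamini-Hochberg adjustment over all of them. It was tested on simulated data first. edgeR 4.0.16 and DESeq2 1.42.0 on the recovered reads were alternatives. GENCODE M21 gave strand, exons and the median length of basic principal transcripts. Each library was taken as a separate mouse, and if that fails p-values measure only the spread between libraries, which may be technical. Depth was 33383559 to 46489349 reads per library, and each member's values carry counting error besides the spread shown. The labels give no batch. Members named with full values were all Sdh genes, Cyc1, Cycs, Uqcrfs1 and the 4 members of complexes III, IV and V with the smallest p, besides the isoform pairs and the extremes of level. Atp5a1, Atp5f1, Atp5e, Atp5l and the named genes of the other lists were chosen after their values were seen. The members and lists were chosen with earlier results of these data known.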

Additional observations from a re-analysis of the deposited data

Results flagged for a closer look

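In 4 of 86 groups of libraries, 1 for each member and genotype, a single library stood far from the others by Dixon's criterion, which chance meets in about 1 group in 20. Atp5l was at 1056 normalized reads in Mye-/- S11, where the nearest other Mye-/- library was at 631. Atp5s was at 94.8 in Mye-/- S12, with the nearest at 37.8. Uqcrfs1 was at 11831 in fl/fl S1, with the nearest at 7769, and it is the case in which the outlying library enlarges the lower value in Mye-/- reported above. Atp5e was at 13399 in fl/fl S1, with the nearest at 18499, so that the same library is high for 1 subunit and low for another.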

How the results depend on the processing

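No paired analysis was possible because the groups share no replicate numbers. Of 38 members with a mean of at least 500 that were lower in Mye-/-, 32 were lower under all 20 alternatives tried on all members. These are not 20 separate checks of direction. Leaving out the filter or the intensity trend does not change a log2 fold change, and age as a covariate gives the same ones as 11-week-old mice alone. Reversals among genes named with full values were Cyc1, at 0.072 with a covariate for detected features, 0.088 without fl/fl S1 and S3 and -0.197 to 0.035 without 1 library (above 0 without fl/fl S3), and Sdha, at -0.234 to 0.013 without 1 library (above 0 without fl/fl S1). Median log2 fold changes ran over -0.41 to -0.17 for complex II, -0.28 to -0.14 for complex III, -0.38 to -0.21 for complex IV and -0.31 to -0.18 for complex V. The count of members lower at an unadjusted p under 0.05 (16) was 0 in 11-week-old mice, 3 with age as a covariate, 6 with a covariate for detected features, 7 without an intensity trend, 6 without fl/fl S1 and S3, and 9 to 21 without 1 library. Members called over all features (0) were 1 with DESeq2, and 1 to 3 with DESeq2 without 1 library, which was tried after seeing the data. In that setting Atp5g3 was called each time, with Cox4i1 and Atp5o without Mye-/- S8, Atp5b without Mye-/- S12, Cox8a without fl/fl S3 and Cox5a without fl/fl S5. DESeq2 called no member with age as a covariate or in 11-week-old mice. The count over all features (3, all higher in Mye-/-) was 0 in 11-week-old mice, with age or the detected features as a covariate, 6 with TMM scaling, 8 with quantile normalization, 9 without fl/fl S1 and S3 (7 higher, 2 lower), 17 with a pseudocount of 8 (12 higher, 5 lower), 21 without an intensity trend (20 higher, 1 lower), 123 with DESeq2 (57 higher, 66 lower) and 0 to 20 without 1 library. The cause was not tested. Age and genotype cannot be separated for the mice aged 10 weeks, which were all Mye-/-.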
